A study of Mus musculus with 6 samples.

Results

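Notch signalling genes were followed in single endothelial cells of mouse brain microvessels. The 9 genes were chosen by name, from the 32286 features counted in each library: the ligands Dll4, Jag1 and Jag2, the receptors Notch1 and Notch4, and the genes Hey1, Hes1, Efnb2 and Nrarp, known as Notch targets. Each gene was found once in the feature list. Their levels were compared between arterial, capillary and venous cells, between genotypes, and between cells of the mosaic knockout with and without Cldn5 transcripts.

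The study profiled 3 control and 3 iECKO libraries with 10x droplet sequencing. Control mice were C57Bl6 with Cldn5 fl/fl and R26 YFP/YFP and no Cre. The iECKO mice carried the same alleles plus Cdh5-creERT2, in which the Cdh5 promoter drives a tamoxifen-dependent Cre in endothelial cells. Mice of both groups were gavaged with tamoxifen at around 3 months of age, on 3 days, with 100 µl of a 20 mg/ml solution. Microvessel fragments had been captured with PECAM1 beads, so endothelial cells dominate each library. Whether a library came from 1 animal or from pooled animals is not given in the labels, so p-values measure the spread between libraries only.

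Notch ligands on one cell bind Notch receptors on its neighbour. The receptor's inner domain is then cut free, enters the nucleus and, with the DNA-binding protein RBPJ, switches on target genes. In vessels the pathway is known for arterial identity and for limiting the number of tip cells, the leading cells of a sprout. Dll4 is the ligand of arterial and tip cells, Jag1 and Jag2 are the Jagged ligands, and Notch4 is a receptor found mainly in endothelium. Hey1 and Hes1 are transcriptional repressors, Efnb2 is the ephrin ligand that marks arteries, and Nrarp is a feedback inhibitor of Notch signalling.

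On GRCm38, Dll4 (ENSMUSG00000027314) lies at chr2:119325784-119335962 on the plus strand and Nrarp (ENSMUSG00000078202) at chr2:25180758-25183339 on the plus strand. Notch1 lies at chr2:26457903-26516663 and Jag1 at chr2:137081456-137116644, both on the minus strand of the same chromosome. Jag2 lies at chr12:112907819-112929776 (minus), Notch4 at chr17:34564268-34588503 (plus), Hey1 at chr3:8663359-8667256 (minus), Hes1 at chr16:30064384-30067796 (plus) and Efnb2 at chr8:8617434-8661242 (minus). Dll4, Notch1 and Nrarp overlap annotated transcripts on the opposite strand that are also in the feature list (Gm14207 with Dll4, 0610009E02Rik and Gm13568 with Notch1, Gm38287 with Nrarp). How the counting treated strand is not given in the sources used here.

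The 250 bases before the start of Dll4 and of Nrarp are shown because these 2 genes carry the genotype comparison. They are RefSeq windows on GRCm38.p6, chr2:119325534-119325783 and chr2:25180508-25180757, both plus strand, written 5′ to 3′. Capitals mark a match to a hexamer bound by Hey and Hes class proteins.
Dll4: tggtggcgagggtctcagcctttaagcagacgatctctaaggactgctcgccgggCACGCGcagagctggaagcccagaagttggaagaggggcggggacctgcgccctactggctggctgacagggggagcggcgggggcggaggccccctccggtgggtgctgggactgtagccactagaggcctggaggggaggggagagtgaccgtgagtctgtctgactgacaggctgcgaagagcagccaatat
Nrarp: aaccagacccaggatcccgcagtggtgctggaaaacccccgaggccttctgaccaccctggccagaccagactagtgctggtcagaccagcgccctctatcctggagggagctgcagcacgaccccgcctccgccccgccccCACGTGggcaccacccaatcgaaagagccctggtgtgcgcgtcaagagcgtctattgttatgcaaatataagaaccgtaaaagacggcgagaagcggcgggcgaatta
Of the 9 genes, 7 matched an entry in the RefSeq table; Hey1 and Hes1 did not. The Dll4 window overlaps an annotated exon of Gm14207, and those of Jag1, Jag2, Notch1 and Notch4 overlap exons of the gene itself. The Notch1 window, chr2:26503823-26504072, lies inside the Notch1 span given above. Not all windows are thus sequence outside the gene. On both strands of these windows, TGGGAA, the core bound by RBPJ, was in 0 of 7 and in 21.6% of 32851 mouse promoters of the same length. CACGTG was in 1 of 7 (Nrarp, 108 bases before the start) and in 6.02% of all promoters. CACGCG was in 2 of 7 (Dll4, 195 bases before the start, and Jag1) and in 7.62% of all. The 3 hexamers do not overlap one another in these windows, and a match describes letters only.

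The files held 4049 to 6684 cell barcodes and 29721428 to 31638780 UMIs per control library, and 2714 to 7420 barcodes and 15727366 to 49350802 UMIs per iECKO library. Each library shared 17 to 46 barcodes with another. Clustering left 3128 to 4863 control and 1892 to 4688 iECKO endothelial cells per library. Cldn5 itself, the deleted gene, was at 4570, 4003 and 5368 CPM (UMIs of the gene per 1e6 UMIs of the same cells) in endothelial cells of control 1, 2 and 3, and at 2686, 2196 and 3118 CPM in iECKO 1, 2 and 3, so the groups did not overlap. These tags count transcripts and do not show which alleles were recombined. One endothelial subcluster, led by Apln and Odc1 and holding 4 of the tip cell markers, was 48.9%, 18.8% and 3.64% of endothelial cells in iECKO 1, 2 and 3 and 0.473%, 0.473% and 0.288% in the controls. It is called Apln-led here and kept apart from the 3 zones. An arterial subcluster led by S100a6 and Ccn3 was 10.8%, 2.33% and 0.463% of endothelial cells in iECKO 1, 2 and 3, against 0.518%, 0.0823% and 0.192% in the controls. Genotype and Cldn5 comparisons of the 9 genes that include these cells are also given without them. All 9 genes, the other lists of Notch, arterial and venous genes, and Cldn5 were left out of clustering and naming, so that zones were built without them.

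Across the 3 named zones of control vessels the Notch genes were graded from artery to vein. Unnamed subclusters were left out of these zones. The one led by Krtap28-13 and Olfm5 was 18.4%, 12.1% and 8.70% of endothelial cells in control 1, 2 and 3. The one led by Plvap and Esm1 was 3.17%, 5.41% and 2.53%. Of the 9 genes, 8 were higher in arterial than in capillary cells, against 13.8% of all genes tested (edgeR's quasi-likelihood test with library as a block and Benjamini-Hochberg adjustment over all genes, threshold 0.05). In venous against capillary cells 6 of 9 were lower, against 19.4% of all genes. In arterial against venous cells 9 of 9 were higher, against 20.2% of all genes. The median log2 difference of the 9 was 1.25, -0.75 and 1.63 in these comparisons, beside medians of -0.01, 0.01 and 0.00 over all genes. Values are 3′ UMI counts not scaled by transcript length, so levels are compared between cells and not between genes.

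**Figure D1:**
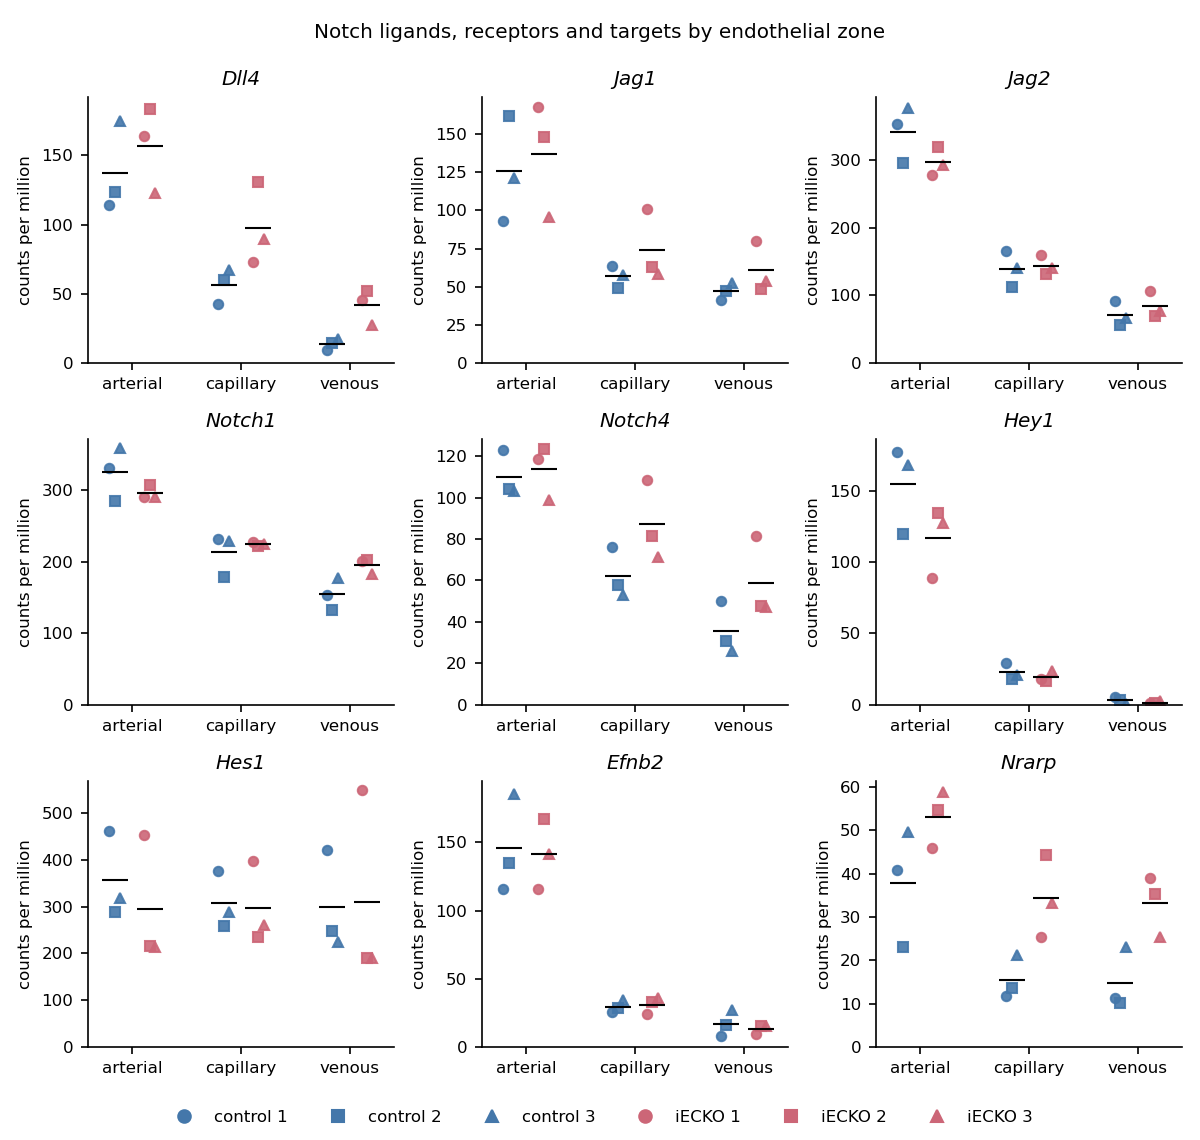
Level of each of the 9 genes (CPM, linear axis from 0, scaled separately for each gene) in arterial, capillary and venous cells; each point is 1 library, with controls and iECKO in separate colours, and short black bars are the group means. In the controls all genes but Hes1 sit higher in arterial than in capillary cells without overlap, and Hey1 goes from a mean of 155 CPM in arterial to 3.25 CPM in venous cells.

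Among the ligands, Dll4 fell stepwise. It was at 114, 124 and 175 CPM in arterial cells of control 1, 2 and 3, at 42.2, 60.2 and 66.9 CPM in capillary cells, and at 9.31, 14.3 and 17.5 CPM in venous cells. No 2 of these zones overlapped. The arterial to capillary log2 difference of Dll4 was 1.27 ± 0.08 (SE, n = 3; edgeR adjusted p = 1.2e-12). The step from capillary down to venous cells was -1.999 ± 0.12 (edgeR adjusted p = 6.2e-13). Jag2, a Jagged ligand, followed the same order, from 296 to 377 CPM in arterial, 113 to 165 CPM in capillary and 56.2 to 92.0 CPM in venous cells. Its log2 differences were 1.29 ± 0.08 and -0.95 ± 0.09, both past the threshold.

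Jag1 differed between subclusters of the arterial class. It was at 93.4, 162 and 122 CPM in arterial, 63.6, 49.2 and 57.8 CPM in capillary and 41.5, 47.1 and 52.4 CPM in venous cells of control 1, 2 and 3. The arterial values stood above both other zones, which overlapped each other. Its arterial to capillary log2 difference was 1.12 ± 0.24 (edgeR adjusted p = 0.033), and without control 3 it was 1.13 ± 0.36 (edgeR adjusted p = 0.20) and no longer passed. The arterial to venous difference was 1.37 ± 0.28 (edgeR adjusted p = 0.019), and 1.504 (edgeR adjusted p = 0.12) without control 3. Within arteries Jag1 was at 148, 311 and 295 CPM in the subcluster led by Fbln5 and Cytl1, whose markers are those of larger arteries, and at 79.9, 88.6 and 74.6 CPM in the subcluster led by Alpl and Islr2. In the unnamed subcluster led by Plvap and Esm1 it was at 7.6 to 17.1 CPM over the 6 libraries, its lowest level in any endothelial subcluster.

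Both receptors were graded less steeply than Dll4. Notch1 was at 284 to 359 CPM in arterial, 178 to 231 CPM in capillary and 132 to 177 CPM in venous cells of the controls. Its log2 difference was 0.59 ± 0.07 in arterial and -0.43 ± 0.07 in venous against capillary cells. Notch4 was at 103 to 123 CPM, 52.8 to 76.3 CPM and 26.1 to 50.1 CPM in the same zones, with log2 differences of 0.82 ± 0.09 and -0.81 ± 0.11. All 4 differences passed the threshold, and zones did not overlap for either receptor.

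The targets split into 3 patterns. Hey1 and Efnb2 had the largest arterial to capillary differences among the 9 genes. Hey1 was at 177, 120 and 168 CPM in arterial, 29.1, 18.4 and 20.9 CPM in capillary and 5.82, 3.41 and 0.516 CPM in venous cells of control 1, 2 and 3. Its log2 differences were 2.75 ± 0.15 (edgeR adjusted p = 1.7e-06) and -2.86 ± 0.35 (edgeR adjusted p = 0.00025). Efnb2 was at 116, 135 and 186 CPM in arterial, 25.4, 28.7 and 34.4 CPM in capillary and 7.76, 15.9 and 26.8 CPM in venous cells. The arterial values stood apart while capillary and venous values overlapped, and its log2 differences were 2.28 ± 0.11 and -0.75 ± 0.16, both past the threshold.

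Nrarp stood out in arterial cells, at 40.8, 23.0 and 49.7 CPM in control 1, 2 and 3. It was at 11.7, 13.5 and 21.3 CPM in capillary and 11.3, 10.0 and 23.0 CPM in venous cells, which overlapped. Its log2 difference was 1.25 ± 0.15 in arterial against capillary cells (edgeR adjusted p = 3.5e-06). Between venous and capillary cells the difference was -0.04 and did not pass. Hes1 showed the least zonation, at 463, 288 and 318 CPM in arterial, 375, 258 and 289 CPM in capillary and 422, 248.5 and 224 CPM in venous cells. Its spread between libraries exceeded its spread between zones. The arterial to capillary log2 difference of Hes1 was 0.18 ± 0.08 (edgeR adjusted p = 0.10). The arterial to venous difference was 0.23 ± 0.08 (edgeR adjusted p = 0.026), and it lost its call with DESeq2 (adjusted p = 0.090), without control 2 (adjusted p = 0.16) and without control 3 (adjusted p = 0.30). Without control 1 Hes1 passed in venous against capillary cells, at -0.21 (edgeR adjusted p = 0.030).

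The knockout libraries had the same order for most genes. For 8 genes, all but Hes1, arterial levels were above capillary levels in 3 of 3 iECKO libraries, as in 3 of 3 controls. Hes1 was higher in arterial cells in 3 of 3 controls and in 1 of 3 iECKO libraries.

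Other Notch pathway genes were called in both directions. Over all genes 13.8% were higher and 10.8% lower in arterial than in capillary cells. Of 6 further Notch target genes tested, 4 were higher in arterial than in capillary cells and 0 lower, with a median log2 difference of 0.35 beside -0.01 over all genes. They were Hey2, a relative of Hey1, at 4.13 ± 0.32, Gata2 at 0.55 ± 0.07, Hes6 at 0.39 ± 0.14 and Ptp4a3 at 0.30 ± 0.08. Hey2 was a low-count gene, at 5.29 to 19.0 CPM in arterial and 0.412 to 0.762 CPM in capillary cells. Of 17 genes of Notch processing and ligand handling, 3 were higher and 5 lower in arterial cells, the higher share being near that of all genes. The protease Furin was higher by 0.52 ± 0.08, Psen2, of the γ-secretase complex that cuts the receptor, by 0.50 ± 0.15, and the ubiquitin ligase Neurl1b and the fringe glycosyltransferase Lfng differed by -1.67 ± 0.42 and -0.59 ± 0.13. Of 18 genes of the nuclear complex and its inhibitors, 2 were higher and 2 lower, shares near those of all genes, and the coactivator Maml3 was among the lower ones at -0.95 ± 0.17. Of 3 further ligands and receptors tested, 0 passed in arterial against capillary cells by edgeR.

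Some pathway genes were highest in venous cells, a direction in which 21.9% of all genes were called against capillary cells. The ligand Dll1 was at 47.7, 18.2 and 27.3 CPM in venous and 10.8, 4.65 and 4.37 CPM in capillary cells of control 1, 2 and 3, a log2 difference of 2.26 ± 0.18 (edgeR adjusted p = 6.4e-09). Lfng, which modifies Notch receptors, was at 158, 90.5 and 109 CPM in venous and 38.7, 31.7 and 40.6 CPM in capillary cells, a difference of 1.69 ± 0.10 (edgeR adjusted p = 3.6e-10). For both genes venous and capillary values did not overlap. Psen2, named above as higher in arterial than in capillary cells, was also highest in venous cells, at 71.8, 51.4 and 57.0 CPM. Its log2 difference was 1.13 ± 0.14 in venous against capillary cells (edgeR adjusted p = 5.7e-05). In arterial against venous cells it was -0.62 ± 0.16 (edgeR adjusted p = 0.0076). Rbpj, the DNA-binding partner of Notch, was lower in venous than in capillary cells by a log2 difference of -0.27 ± 0.09 (edgeR adjusted p = 0.012).

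Arterial and venous programme genes gave the scale of the zones. Of 12 further arterial genes, 9 were higher and 2 lower in arterial than in capillary cells, with a median of 0.69. The connexin genes Gja5 and Gja4 had differences of 7.31 ± 0.37 and 5.75 ± 0.16, the guidance receptor Unc5b 2.14 ± 0.12 and Depp1 1.31 ± 0.13. Gja5 was at 0.0762 to 0.0824 CPM in capillary cells, so that its difference depends on few counts. Of 6 venous genes 5 were lower and 1 higher in arterial cells, with a median of -1.89, led by the venous regulator Nr2f2 at -4.09 ± 0.12, the apelin receptor Aplnr at -3.90 ± 0.45 and Nrp2 at -3.27 ± 0.16.

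Outside the endothelium only some of the 9 genes were found. Dll4 was at 0 to 14.5 CPM in pericytes, 0 to 4.88 CPM in smooth muscle cells and 0 to 7.83 CPM in microglia over the 6 libraries. Jag1 was at 143 to 192 CPM in smooth muscle cells of the controls and 195 to 285 CPM in those of iECKO, and at 129 to 175 CPM in pericytes of all libraries. Notch1 was at 437 to 449 CPM in control pericytes and 280 to 441 CPM in iECKO pericytes. Nrarp was at 76.5, 64.1 and 181 CPM in pericytes of control 1, 2 and 3 and at 198, 191 and 153 CPM in those of iECKO 1, 2 and 3, from 7 to 41 UMIs per library, and the groups overlapped. Thinned to 2000 UMIs per cell, a Nrarp UMI was found in 11.6% ± 8.53 of control and 29.2% ± 7.64 of iECKO pericytes (SD, n = 3), or 16.8% and 34.0% unthinned. Hes1 was found in every class. No genotype test was fitted in these classes, which held 28 to 247 cells per library for smooth muscle cells, 36 to 82 for pericytes and 36 to 171 for microglia.

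**Figure D2:**
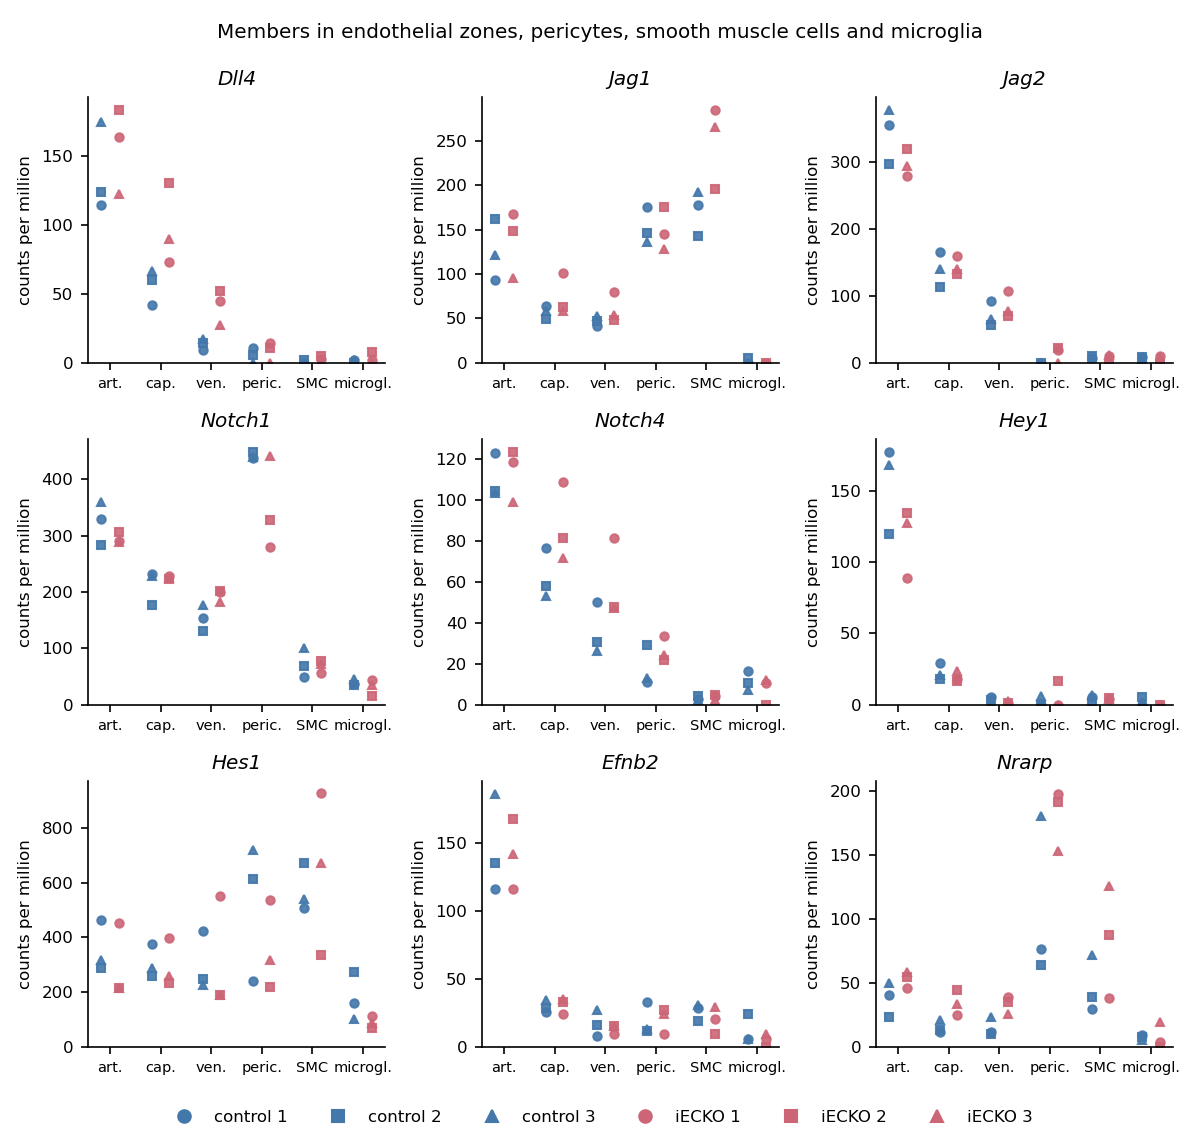
Level of the 9 genes (CPM, linear axis from 0, scaled separately for each gene) in arterial, capillary and venous endothelial cells, pericytes, smooth muscle cells and microglia; each point is 1 library. Every Dll4 and Jag2 point in pericytes, smooth muscle cells and microglia lies below every capillary point of that gene, while Jag1 is also present in smooth muscle cells and pericytes and Hes1 in all classes.

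In cells thinned to 2000 UMIs, a Dll4 UMI was found in 22.3% ± 4.97 of arterial, 11.3% ± 2.82 of capillary and 2.28% ± 2.55 of venous control cells (SD, n = 3), against 0.563% ± 0.504 of control microglia, which should lack it. Unthinned shares were 45.1%, 21.4% and 14.7% in the 3 zones and 0.528% in microglia, whose median depth was 2637 to 5473 UMIs per cell against 4012 to 6498 in arterial cells. A Nrarp UMI was found in 6.21% ± 3.18 of arterial and 2.91% ± 1.15 of capillary control cells (SD, n = 3) and in 1.34% ± 0.612 of control microglia, so the capillary share is little above that background. Unthinned, these Nrarp shares were 15.6%, 7.08% and 2.33%. A Hey1 UMI was found in 24.4% ± 4.58 of arterial, 5.06% ± 1.04 of capillary and 0.457% ± 0.791 of microglial control cells (SD, n = 3), or 47.6%, 8.79% and 0.857% unthinned. The thinning left out 1671 capillary, 244 arterial and 125 microglial cells with fewer UMIs. The gradients of Dll4 and Hey1 were thus also gradients in the share of cells with a UMI.

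Across 18 sums (6 libraries by 3 zones) the genes closest in pattern were found among 6170 genes by Pearson r, given as a description because the sums share libraries and depth. Nearest to Dll4 were Kcnj2 (r = 0.961), Gja1 (0.952) and Col4a1 (0.949), and nearest to Hey1 were Rad54b (0.992), Unc5b (0.986) and Alpl (0.981). Hrct1 was the nearest gene to Jag2 (0.979) and Notch1 (0.954), and Timp3 to Notch4 (0.943). Pik3r3 was nearest to Efnb2 (0.967), Cyth3 to Jag1 (0.923) and Ccnd1 to Nrarp (0.913). Among the 9 genes, Dll4 and Notch1 had r = 0.889, Dll4 and Nrarp 0.762, and Dll4 and Hes1 0.0208.

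The genotype comparison asks whether the Notch genes differed after Cldn5 deletion. In capillary and in venous cells, the CPM of Dll4 and Nrarp was higher in every iECKO library than in every control library. In arterial cells the groups overlapped. Dll4 in capillary cells was at 42.2, 60.2 and 66.9 CPM in control 1, 2 and 3 and at 73.1, 131 and 89.7 CPM in iECKO 1, 2 and 3. Nrarp in capillary cells was at 11.7, 13.5 and 21.3 CPM in the controls and 25.3, 44.3 and 33.3 CPM in iECKO. For both genes the lowest iECKO library lay above the highest control in CPM. Shares of cells with a UMI, thinned to 2000 UMIs per cell, mostly overlapped. Capillary shares were 8.61% to 14.2% in control and 14.1% to 23.8% in iECKO for Dll4, and 1.98% to 4.20% and 3.93% to 7.62% for Nrarp. Venous shares of Dll4 were 0.621% to 5.22% and 4.05% to 8.47%. Only venous Nrarp did not overlap, at 3.11% to 4.78% and 5.08% to 9.33%.

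In edgeR without a replicate block neither gene passed. In capillary cells 0 of 9 genes passed, beside 0.0% of all genes tested, and 2 of 9 had an unadjusted p under 0.05. The log2 difference was 0.77 ± 0.25 for Dll4 (n = 3 per group; edgeR adjusted p = 0.95) and 1.13 ± 0.24 for Nrarp (edgeR adjusted p = 0.33). Libraries with the same replicate number deviated together, so the fit with that number as a block is given beside it. With the replicate block 3 of 9 genes passed in capillary cells, all higher, beside 1.36% of all genes. They were Dll4 at 0.73 ± 0.11 (edgeR adjusted p = 0.0045), Nrarp at 1.09 ± 0.17 (edgeR adjusted p = 0.019) and Notch4 at 0.44 ± 0.09 (edgeR adjusted p = 0.012). DESeq2 without a block called 1 of 9, Nrarp at 1.14 ± 0.25 (adjusted p = 0.0030), beside 0.265% of all genes. The 2 genes whose groups did not overlap, Dll4 and Nrarp, stand beside 4.85% of the genes of at least 5 CPM. Without iECKO 2 the Dll4 difference was 0.44 ± 0.18 (n = 3 control and 2 iECKO; edgeR adjusted p = 1.00).

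**Figure D3:**
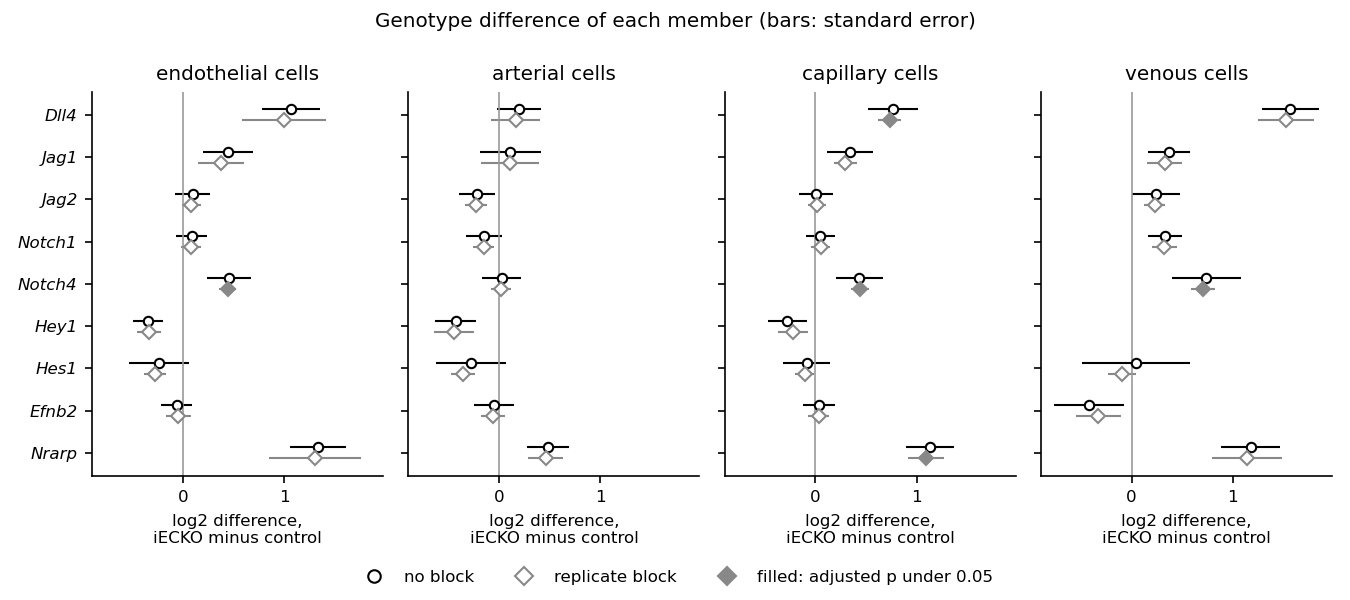
Log2 difference (iECKO minus control, ± SE, 3 libraries per group) of the 9 genes in endothelial, arterial, capillary and venous cells; circles are the fit without and diamonds the fit with the replicate block, and filled symbols passed an adjusted p of 0.05. Filled symbols are diamonds only: Notch4 in endothelial, capillary and venous cells, and Dll4 and Nrarp in capillary cells.

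Marker genes moved in the same capillary cells, and some also moved in venous and arterial cells, as given below. The 8 tip cell markers summed to 87.1 to 101 CPM in control and 143 to 223 CPM in iECKO capillary cells. The 9 pericyte markers summed to 26.4 to 53.3 and 53.6 to 90.5 CPM, and the 8 astrocyte markers to 65.7 to 72.8 and 104 to 121 CPM. No tip cell or pericyte marker was at 0 in any library, and at most 1 astrocyte marker was. The 10 capillary markers were lower without overlap, at 9259 to 10744 CPM in control and 6743 to 8602 CPM in iECKO cells. The part of these markers in the result was not tested. When the Apln-led cells were counted as capillary, a choice made after seeing the data, the differences without a block were 1.51 ± 0.36 for Dll4 (edgeR adjusted p = 0.16) and 2.24 ± 0.42 for Nrarp (edgeR adjusted p = 0.13), where 0.0331% of all genes were called. Only Notch4 then passed with the replicate block, at 0.60 ± 0.09 (edgeR adjusted p = 0.014), beside 4.05% of all genes.

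The difference appeared in the capillary subclusters with at least 20 cells in every library. In the one led by Gm26917 and Ivns1abp, Dll4 was at 87.6, 89.4 and 122 CPM in the controls and 127, 191 and 145 CPM in iECKO, and Nrarp at 9.08, 7.80 and 15.9 CPM against 23.2, 51.3 and 28.8 CPM. In the one led by Ttr and Rmrp, Dll4 was at 36.5 to 60.2 CPM against 70.7 to 128 CPM and Nrarp at 8.06 to 15.7 CPM against 26.3 to 36.6 CPM. In the one led by Cyp2e1 and F5, Dll4 was at 14.9 to 31.9 CPM against 34.0 to 70.7 CPM and Nrarp at 13.6 to 17.1 CPM against 26.7 to 40.4 CPM. In these subclusters, led by Gm26917, Ttr and Cyp2e1, both genes were separate between the groups. In control 3 and iECKO 3 the Ttr-led one held only 73 and 54 cells and the Cyp2e1-led one 60 and 47. The capillary subcluster led by Ndnf and Dbp held 122, 27 and 1089 cells in control 1, 2 and 3 and 17, 49 and 1269 in iECKO. It held most capillary cells of control 3 and iECKO 3 but too few in iECKO 1 to compare all libraries. In the arterial subcluster led by Alpl and Islr2, Dll4 was at 113 to 167 CPM in control and 127 to 199 CPM in iECKO cells, and the groups overlapped. In the subcluster led by Plvap and Esm1 the groups also overlapped, with Dll4 at 104 to 144 CPM in control and 68.2 to 104 CPM in iECKO cells.

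**Figure D4:**
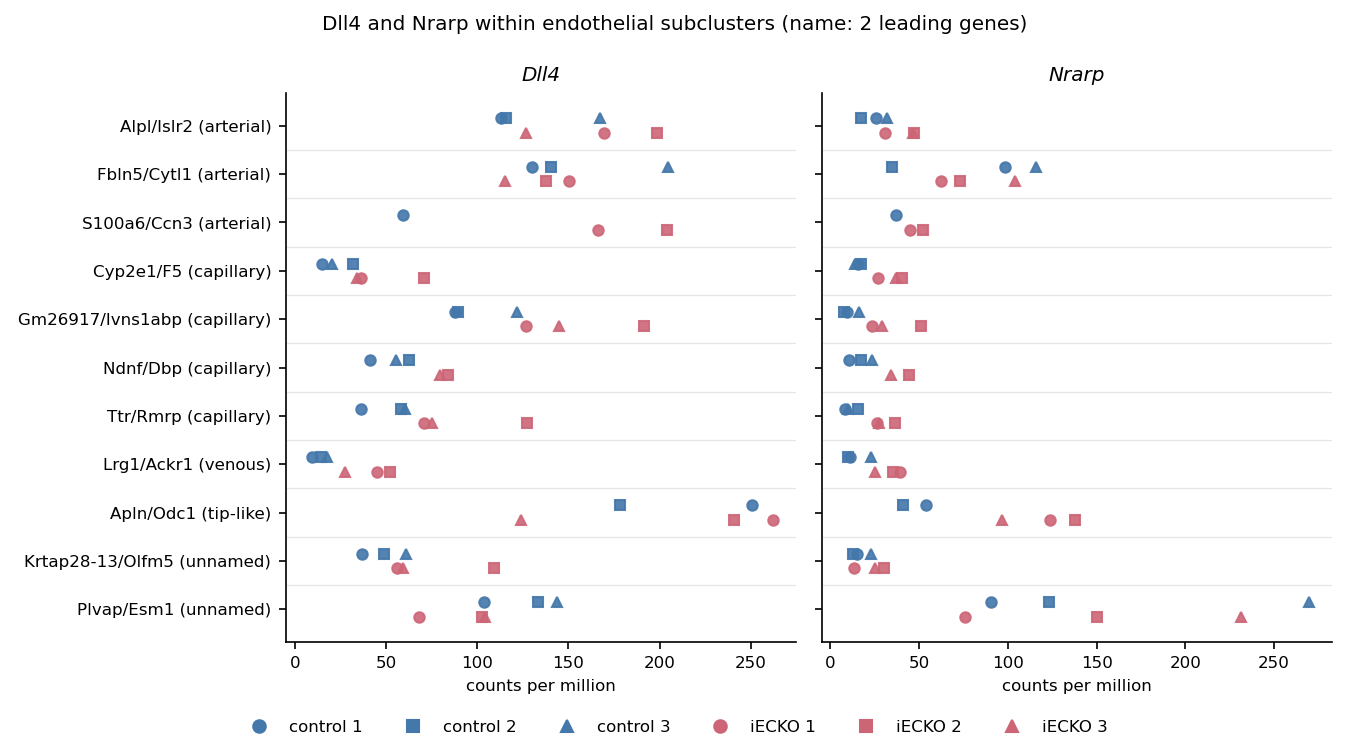
Level of Dll4 and Nrarp (CPM, linear axis) in each endothelial subcluster, named by its 2 leading genes; each point is 1 library with at least 20 cells of that subcluster. Points of control and iECKO separate in the venous subcluster and in the capillary ones led by Gm26917, Ttr and Cyp2e1. For Dll4 they overlap in the arterial ones led by Alpl and by Fbln5.

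In the Apln-led cells themselves Dll4 was at 251 and 178 CPM in control 1 and 2 and at 262, 241 and 124 CPM in iECKO 1, 2 and 3, and the groups overlapped. Control 3 held 9 such cells, under the minimum of 20. Nrarp was at 53.7 and 41.1 CPM in control 1 and 2 and at 124, 138 and 96.5 CPM in iECKO, without overlap. The controls' values rest on 21 and 23 cells, and no test was fitted.

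In venous cells Dll4 was at 9.31, 14.3 and 17.5 CPM in the controls and 45.1, 51.9 and 27.4 CPM in iECKO, a log2 difference of 1.57 ± 0.28 (n = 3 per group; edgeR adjusted p = 0.33). Nrarp was at 11.3, 10.0 and 23.0 CPM and 38.9, 35.3 and 25.3 CPM, a difference of 1.18 ± 0.29 (edgeR adjusted p = 0.63). Venous cells of iECKO 2 had a median of 4689 UMIs, against 10631 to 13253 in the other libraries. The part of this depth in the result was not tested. For Dll4, Nrarp and Notch1 the groups did not overlap, 3 of 8 genes beside 7.99% of genes of at least 5 CPM. Of the 8 genes tested in venous cells, Hey1 being too low, edgeR without a block called 0, beside 0.0% of all genes, and 2 had an unadjusted p under 0.05. Under the block 1 of 8 passed, Notch4 at 0.71 ± 0.12 (edgeR adjusted p = 0.037), beside 0.208% of all genes. DESeq2 called 1 of 8, Dll4 at 1.58 ± 0.32 (adjusted p = 0.0013), beside 0.208% of all genes. Without iECKO 3 Dll4 also passed in edgeR, at 1.83 ± 0.22 (adjusted p = 0.011). The tip cell markers in venous cells summed to 67.3 to 88.5 CPM in control and 102 to 242 CPM in iECKO, with at most 2 of 8 at 0. The pericyte markers also separated there, at 26.6 to 40.2 CPM against 44.998 to 77.1 CPM, with at most 6 of 9 at 0, while the astrocyte markers overlapped. The part of these markers in the result was not tested.

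In arterial cells the groups overlapped for all 9 genes, beside 6.48% of genes of at least 5 CPM whose groups did not. Dll4 was at 164, 183 and 123 CPM in iECKO 1, 2 and 3, within the range of the controls but for 1 library. Nrarp was at 45.8, 54.6 and 58.9 CPM and Hey1 at 88.6, 135 and 128 CPM. Tip cell markers summed to 54.2 to 63.2 CPM in control and 78.1 to 215 CPM in iECKO arterial cells. Pericyte markers summed to 40.2 to 60.0 and 77.8 to 90.3 CPM, and astrocyte markers to 81.0 to 111 and 131 to 184 CPM. These 3 sums did not overlap, while the capillary markers did. Up to 3 pericyte and 4 astrocyte markers were at 0. The part of these markers was not tested. edgeR without a block called 0 of 9, beside 0.0184% of all genes, with 1 of 9 at an unadjusted p under 0.05. Under the block 0 of 9 passed and 2 had an unadjusted p under 0.05, beside 2.04% of all genes called. DESeq2 called 0 of 9, beside 0.221% of all genes, with 0 of 9 at an unadjusted p under 0.05. The arterial differences were 0.19 ± 0.22 for Dll4, 0.48 ± 0.21 for Nrarp and -0.43 ± 0.20 for Hey1. Without the S100a6-led cells, left out after seeing the data, they were 0.15 ± 0.20, 0.50 ± 0.21 and -0.33 ± 0.19, and edgeR called 0 of 9 without a block, beside 0.0% of all genes, and 0 of 9 with it, beside 0.915%, with 1 and 3 of 9 at an unadjusted p under 0.05.

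Over all endothelial cells together, Dll4 was at 52.1, 65.3 and 83.0 CPM in the controls and 172, 148 and 87.7 CPM in iECKO. Nrarp was at 20.6, 19.6 and 36.5 CPM and 77.1, 65.8 and 43.9 CPM. These were the 2 genes of 9 whose groups did not overlap, beside 8.57% of genes of at least 5 CPM, and iECKO 3 lay close to control 3. edgeR without a block called 0 of 9, beside 0.00754% of all genes, with 3 of 9 at an unadjusted p under 0.05. The log2 difference was 1.07 ± 0.28 for Dll4 (edgeR adjusted p = 0.34) and 1.34 ± 0.28 for Nrarp (edgeR adjusted p = 0.22). With the replicate block 1 of 9 passed, Notch4 at 0.44 ± 0.08 (edgeR adjusted p = 0.043), beside 1.51% of all genes. DESeq2 called 2 of 9, Nrarp at 1.33 ± 0.28 (adjusted p = 0.00088) and Dll4 at 1.06 ± 0.28 (adjusted p = 0.021), beside 1.27% of all genes.

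The endothelial pool was also tested without some of the cells that differed in number. Other subclusters whose share of all endothelial cells did not overlap between groups stayed in. The one led by Krtap28-13 and Olfm5 was 18.4%, 12.1% and 8.70% in control 1, 2 and 3 and 3.46%, 5.34% and 8.20% in iECKO. The one led by Gm26917 and Ivns1abp was 25.4%, 22.4% and 21.4% and 9.62%, 19.0% and 19.3%. Without the Apln-led and S100a6-led cells, left out after seeing the data, the endothelial difference was 0.50 ± 0.21 for Dll4 and 0.69 ± 0.19 for Nrarp, each with an edgeR adjusted p of 1.00. The replicate block gave 0.47 ± 0.15 and 0.70 ± 0.21 (both edgeR adjusted p = 0.42), and Notch4 lost its call there, at 0.33 ± 0.07 (edgeR adjusted p = 0.19). In these cells 0 of 9 genes passed without the block, beside 0.0% of all genes, and 0 of 9 with it, beside 0.258%, with 2 and 3 of 9 at an unadjusted p under 0.05. Without iECKO 3, which held the fewest Apln-led cells of the iECKO group, Dll4 was at 1.35 ± 0.18 and Nrarp at 1.59 ± 0.21 and both passed (edgeR adjusted p = 0.022 and 0.023).

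The other 7 genes had smaller differences over endothelial cells. There the log2 difference without a block was 0.46 ± 0.22 for Notch4, 0.45 ± 0.25 for Jag1, 0.10 ± 0.17 for Jag2, 0.09 ± 0.15 for Notch1, -0.06 ± 0.15 for Efnb2, -0.23 ± 0.30 for Hes1 and -0.34 ± 0.15 for Hey1. The median of the 9 genes was 0.10, beside 0.00 over all genes. None of these 7 passed without the block, and with it Notch4 passed in endothelial, capillary and venous cells, as given above. No test compared these genes with Dll4.

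The wider pathway lists gave 0 genes called between genotypes by edgeR without a block in any of the 6 lists and 4 cell sets. Under the block 2 genes were called, both in arterial cells, where they were 3.28% of the 61 list genes tested beside 2.04% of all genes, a share near the background. The protease Adam17 was at 61.1, 70.5 and 85.9 CPM in the controls and 43.9, 56.2 and 56.5 CPM in iECKO, a log2 difference of -0.50 ± 0.11 (edgeR adjusted p = 0.029). The transcription factor Sox7 was at 62.3, 43.8 and 53.3 CPM and 95.2, 68.1 and 68.0 CPM, a difference of 0.51 ± 0.11 (edgeR adjusted p = 0.027).

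Whether the genotype difference differed between zones was tested as an interaction. In arterial against capillary cells 0 of 9 genes passed by edgeR, beside 0.0% of all genes, with 2 of 9 at an unadjusted p under 0.05; DESeq2 also called 0 of 9, beside 0.0%, with 3 of 9. The Dll4 interaction was -0.59 ± 0.18 (edgeR adjusted p = 0.94), and it passed without iECKO 1, at -0.81 ± 0.12 (edgeR adjusted p = 0.0018). It also passed when the Apln-led cells counted as capillary, at -1.25 ± 0.18 (edgeR adjusted p = 0.0088), beside 0.268% of all genes. Without the S100a6-led cells it was -0.63 ± 0.18 (edgeR adjusted p = 1.00) and 0 of 9 passed, beside 0.0%, with 2 of 9 at an unadjusted p under 0.05. In venous against capillary cells 0 of 9 passed by edgeR, beside 0.0% of all genes, and 0 of 9 by DESeq2, beside 0.0518%, with 2 of 9 at an unadjusted p under 0.05 in each. The Dll4 difference there was 0.81 ± 0.25 (edgeR adjusted p = 0.53).

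Within iECKO vessels, cells with and without Cldn5 transcripts share a library and a vessel bed. Among cells of at least 2000 UMIs, cells with 0 Cldn5 UMIs (undetected) were 13.01%, 10.5% and 11.7% of capillary cells in iECKO 1, 2 and 3, against 0.117% to 0.741% in the controls. They were 18.3% to 21.9% of arterial iECKO cells, against 0.157% to 0.338% in the controls. They were compared with cells of at least 2 Cldn5 UMIs (detected). Undetected capillary cells were shallower, at a median of 2855, 3847 and 4248 UMIs against 4366, 5450 and 6078. In venous cells iECKO 1, 2 and 3 held 17, 11 and 12 undetected cells, under the minimum of 20, and no comparison was made.

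In capillary cells of iECKO, 3 genes that were highest in arteries were higher where Cldn5 was undetected. This was 3 of 9 genes, beside 0.986% of all genes higher (edgeR with library as a block), and the median log2 difference of the 9 was 0.25 beside 0.00 over all genes. Hey1 was at 13.4, 15.4 and 20.2 CPM in detected and 36.1, 20.8 and 61.4 CPM in undetected cells of iECKO 1, 2 and 3, a log2 difference of 1.39 ± 0.24 (n = 3 libraries; edgeR adjusted p = 1.2e-06). Efnb2 was at 18.6, 32.1 and 32.8 CPM and 60.2, 41.6 and 56.4 CPM, a difference of 0.90 ± 0.21 (edgeR adjusted p = 0.0017). Dll4 was at 64.2, 122 and 86.7 CPM and 120.3, 208 and 96.7 CPM, a difference of 0.56 ± 0.14 (edgeR adjusted p = 0.0071). Each of the 3 genes was higher in undetected cells in 3 of 3 libraries, by little for Dll4 in iECKO 3 and for Hey1 in iECKO 2.

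These calls depended on single libraries. Hey1 lost its call without iECKO 3 (1.00, edgeR adjusted p = 0.25), Efnb2 without iECKO 1 (0.69, edgeR adjusted p = 0.11) or iECKO 3 (1.05, edgeR adjusted p = 0.051), and Dll4 without iECKO 1 (0.44, edgeR adjusted p = 0.12) or iECKO 2 (0.40, edgeR adjusted p = 0.57). Among cells of at least 4000 UMIs, a smaller set, Dll4 was at 0.50 (edgeR adjusted p = 0.41) and Efnb2 at 0.65 (edgeR adjusted p = 0.73), and Hey1 kept its call. DESeq2 gave no adjusted p for any of the 9 genes here, and 4 of 9 had an unadjusted p under 0.05 with it.

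The 2 sets of capillary cells also differed in markers and in makeup. The 12 arterial markers summed to 626 to 873 CPM in undetected and 444 to 678 CPM in detected capillary cells, with 3 higher and 3 lower in 3 of 3 libraries. The 12 venous markers summed to 1364 to 2012 CPM and 2386 to 3778 CPM, with 5 lower in 3 of 3 libraries. Up to 3 arterial and 2 venous markers were at 0 in undetected cells. Pericyte, smooth muscle, astrocyte and ependymal or choroid plexus markers were higher in undetected cells in 3 of 3 libraries. Microglia markers were not, at 87.2, 35.7 and 47.3 CPM in undetected and 69.3, 35.6 and 48.2 CPM in detected cells of iECKO 1, 2 and 3. The pericyte markers summed to 90.3, 98.1 and 84.6 CPM in undetected and 72.9, 77.1 and 52.0 CPM in detected cells of iECKO 1, 2 and 3, and the astrocyte markers to 150.4, 172 and 128 CPM and 98.96, 114 and 102 CPM. The ependymal and choroid plexus markers summed to 162, 300.2 and 68.5 CPM and 108, 114 and 49.4 CPM. Up to 5 markers of the pericyte, astrocyte and ependymal lists, 3 of the smooth muscle list and 6 of the microglia list were at 0 in undetected cells. The subcluster led by Gm26917 and Ivns1abp, in which Hey1 was at 29.4 to 63.5 CPM in controls, made up 63.2%, 56.2% and 38.2% of undetected and 36.5%, 41.9% and 24.6% of detected capillary cells in iECKO 1, 2 and 3. The subcluster led by Cyp2e1 and F5, in which Hey1 was at 3.19 to 6.82 CPM in controls, made up 4.72%, 2.5% and 1.84% of undetected and 32.6%, 24.1% and 2.78% of detected cells. The part of these differences in the result was not tested. Of 10 further arterial genes tested, Unc5b at 0.74 ± 0.19 (edgeR adjusted p = 0.0094) and Depp1 at 0.65 ± 0.18 (edgeR adjusted p = 0.018) were higher and 0 lower, and the venous gene Nr2f2 was lower, at -1.59 ± 0.20 (edgeR adjusted p = 1.2e-12), beside 1.46% of all genes lower.

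**Figure D5:**
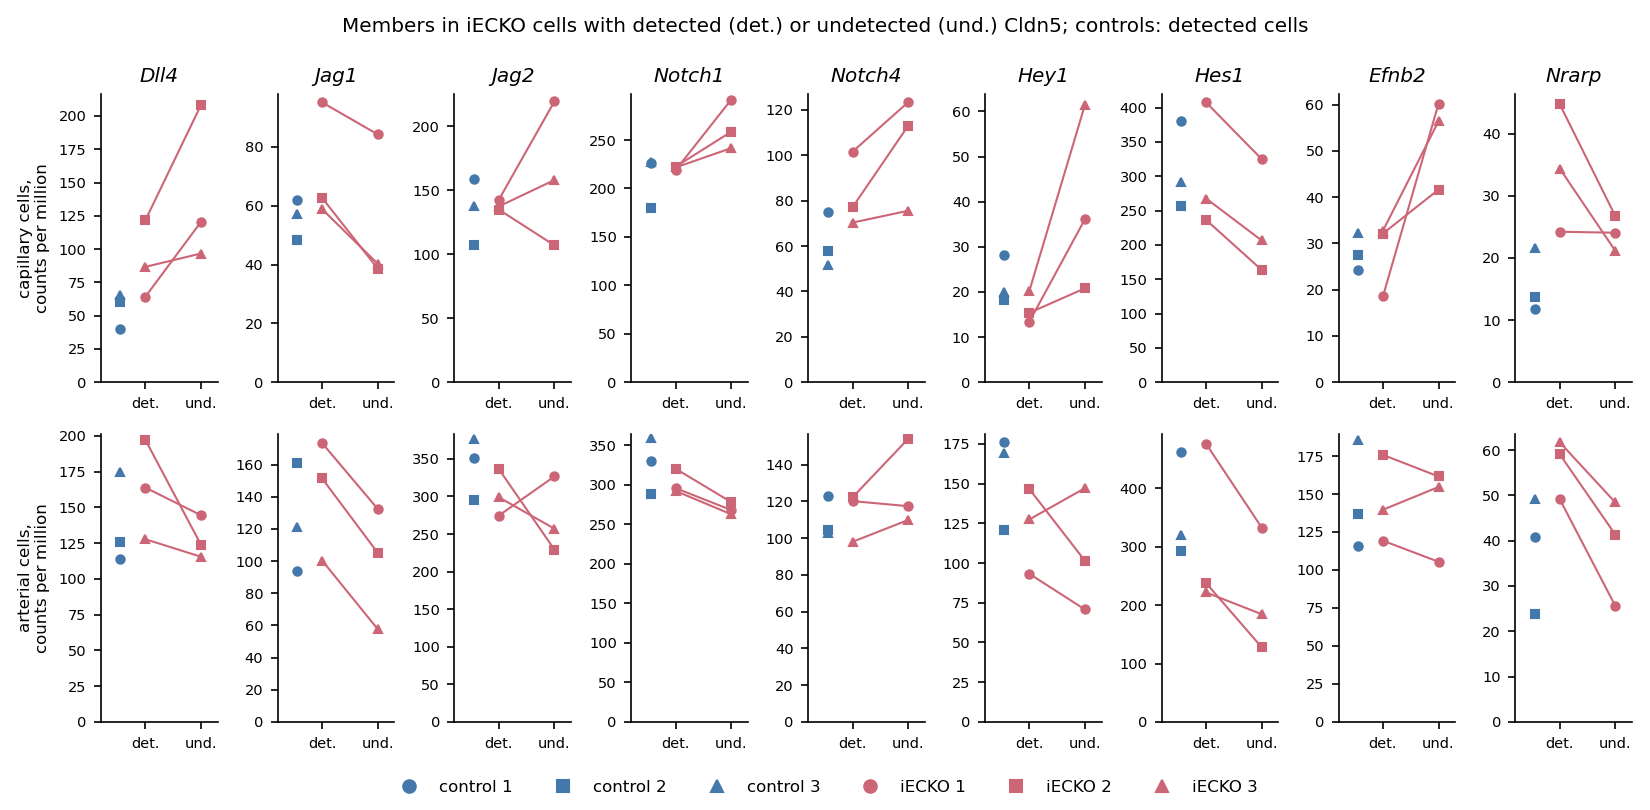
Level of the 9 genes (CPM) in iECKO cells with Cldn5 detected and undetected, in capillary (top) and arterial (bottom) cells; each line joins the 2 sets of 1 library, and blue points are Cldn5-detected cells of the controls. Hey1, Efnb2 and Dll4 are higher in undetected than in detected cells in each of the 3 capillary lines. Hes1 and Jag1 are lower in each of the 3 arterial lines and in each of the 3 capillary lines.

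In arterial cells the same gate called other genes, and no test compared the status differences between zones. Of the 9 genes 2 were lower in undetected cells, beside 0.7% of all genes lower, and the median of the 9 was -0.14 beside 0.01. Hes1 was at 476, 238 and 222 CPM in detected and 333, 128 and 184 CPM in undetected cells of iECKO 1, 2 and 3, a log2 difference of -0.48 ± 0.11 (edgeR adjusted p = 0.0031). Jag1 was at 173, 151 and 100.4 CPM and 133, 105 and 57.7 CPM, a difference of -0.50 ± 0.14 (edgeR adjusted p = 0.049). Both genes were also lower in undetected capillary cells but did not pass there. The capillary differences were -0.38 ± 0.12 for Hes1 (edgeR adjusted p = 0.064) and -0.44 ± 0.18 for Jag1 (edgeR adjusted p = 0.23). Hey1, Efnb2 and Dll4 did not pass in arterial cells, at -0.14 ± 0.14, -0.02 ± 0.13 and -0.26 ± 0.13. DESeq2 called 0 of 9 in arterial cells, beside 0.303% of all genes, with 2 of 9 at an unadjusted p under 0.05. Jag1 lost its call without any 1 of the 3 libraries (edgeR adjusted p = 0.068 to 0.66), and Hes1 without iECKO 1 (edgeR adjusted p = 0.26).

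The arterial markers were lower in those undetected cells. The 12 markers summed to 3400 to 5371 CPM in undetected and 6122 to 7332 CPM in detected arterial cells, and 9 of 12 were lower in 3 of 3 libraries, with at most 1 at 0 in undetected cells. The Fbln5-led subcluster, in which Jag1 was highest, made up 6.94%, 1.82% and 14.5% of undetected and 15.7%, 24.6% and 17.2% of detected arterial cells of iECKO 1, 2 and 3. The part of these differences in the result was not tested. Without the S100a6-led cells, left out after seeing the data, Nrarp passed as well, at -1.04 ± 0.29 (edgeR adjusted p = 0.025), while Jag1 was at -0.60 ± 0.18 (edgeR adjusted p = 0.056), and 2 of 9 were called beside 1.44% of all genes.

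Cells with at least 2 Cldn5 UMIs were then compared between genotypes. Their Cldn5 level was still lower in iECKO, without overlap. In detected capillary cells it was 5150, 4352 and 6076 CPM in control 1, 2 and 3 and 3341, 2695 and 3912 CPM in iECKO. In detected arterial cells it was 4410, 4011 and 5073 CPM and 2196, 2068 and 3016 CPM. In Cldn5-detected capillary cells Dll4 was at 40.3, 60.3 and 65.6 CPM in the controls and 64.2, 122 and 86.7 CPM in iECKO, and Nrarp at 11.9, 13.7 and 21.5 CPM and 24.2, 44.7 and 34.4 CPM. The lowest iECKO value of Dll4 lay within the control range, and the groups did not overlap for Nrarp. edgeR without a block called 0 of 9, beside 0.0% of all genes, with 3 of 9 at an unadjusted p under 0.05. With the replicate block 3 of 9 passed, beside 1.12% of all genes: Dll4 at 0.65 ± 0.10 (edgeR adjusted p = 0.0044), Nrarp at 1.07 ± 0.17 (edgeR adjusted p = 0.014) and Notch4 at 0.40 ± 0.09 (edgeR adjusted p = 0.032). DESeq2 called 1 of 9, Nrarp at 1.12 ± 0.25 (adjusted p = 0.0076), beside 0.225% of all genes. The tip cell markers summed to 88.5 to 102 CPM in the controls and 147 to 222 CPM in iECKO detected capillary cells, with at most 1 of 8 at 0. The astrocyte markers summed to 65.0 to 71.6 CPM and 98.96 to 114 CPM and the capillary markers to 9201 to 10671 CPM and 6728 to 8542 CPM, both without overlap, and the pericyte markers to 25.5 to 52.9 CPM and 52.0 to 77.1 CPM. The part of these markers in the result was not tested.

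Over all Cldn5-detected endothelial cells, Apln-led cells included, edgeR without a block called 0 of 9, beside 0.0383% of all genes, with 3 of 9 at an unadjusted p under 0.05. The differences were 1.09 ± 0.28 for Dll4 (edgeR adjusted p = 0.31) and 1.64 ± 0.31 for Nrarp (edgeR adjusted p = 0.17). With the replicate block Notch4 alone passed, at 0.45 ± 0.08 (edgeR adjusted p = 0.034), beside 1.95% of all genes. DESeq2 called 2 of 9, Nrarp at 1.63 ± 0.30 (adjusted p = 3.5e-05) and Dll4 at 1.08 ± 0.28 (adjusted p = 0.016), beside 1.23% of all genes. Without iECKO 3 edgeR also called both, at 1.92 ± 0.22 for Nrarp and 1.36 ± 0.18 for Dll4 (adjusted p = 0.011 and 0.019). Without the Apln-led and S100a6-led cells, left out after seeing the data, Dll4 was at 0.50 ± 0.22 (edgeR adjusted p = 1.00) and Nrarp at 0.92 ± 0.20 (edgeR adjusted p = 0.67). With the block Notch4 then lost its call, at 0.31 ± 0.07 (edgeR adjusted p = 0.22). edgeR called 0 of 9 in these cells without the block, beside 0.0% of all genes, and 0 of 9 with it, beside 0.246%, with 3 and 4 of 9 at an unadjusted p under 0.05.

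In Cldn5-detected arterial cells 0 of 9 passed by edgeR without the block, beside 0.0186% of all genes, with the block, beside 1.99%, and by DESeq2, beside 0.196%. At an unadjusted p under 0.05 were 1, 2 and 1 of 9 genes in these fits. Without the S100a6-led cells Dll4 was at 0.17 ± 0.21 and Nrarp at 0.63 ± 0.20 (both edgeR adjusted p = 1.00), and 0 of 9 passed without the block, beside 0.0% of all genes, and with it, beside 0.744%, with 1 of 9 at an unadjusted p under 0.05 in each.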

How the data were processed

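Deposited values are whole UMI counts for each gene in each barcode, written by Cell Ranger 6.1.1, per the file headers; mm10 and Seurat are named in the submitters' processing notes. Barcodes under 1000 UMIs, under 500 genes or over 15% mitochondrial UMIs were dropped, called doublets and mixed cells were removed (Scrublet, scanpy 1.11.5), and cells were clustered (leidenalg 0.10.2). Names were rebuilt from marker lists, so zone borders may differ from the authors'. Raw counts were summed per library and cell set (at least 20 cells) and tested with edgeR 4.0.16 (TMM, filterByExpr, R 4.3.3) or DESeq2 1.42.0, adjusted over all genes tested. The fits were tested on simulated data.

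Replicate numbers paired the libraries: deviations from the group means correlated at r = 0.433, 0.518 and 0.499 over 13265 genes for equal numbers, and at -0.387 to -0.0986 otherwise. Xist was found in both libraries numbered 2 and was near 0 in the others.

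All 9 genes are named; of each list, at most 4 called genes per comparison by size. Some genes that these rules name are not reported here. The 9 genes and the lists were chosen with earlier results of these data known.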

Additional observations from a re-analysis of the deposited data

How the results depend on the processing

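Over 125 gene-level results and 2018 alternatives, 1929 kept direction and side of the threshold, 34 lost the call, 49 gained one and 6 turned direction. Zone counts stayed within 1.5 times in every alternative run: 7 to 9, 6 to 7 and 7 to 9 of 9 genes.

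With the replicate block the count of called genes between genotypes was 1 in endothelial, 3 in capillary and 1 in venous cells, 1 and 3 in Cldn5-detected endothelial and capillary cells, and 1 with Apln-led cells counted as capillary, in all and in detected cells; no other set changed its count with the block. DESeq2 gave 2, 1, 1, 2 and 1 in the same 5 sets. Without a filter on low counts it was 1 in capillary, 2 in venous and 1 in detected capillary cells, and 1 for each interaction. The arterial interaction was also 1 by the marker gate and with Apln-led cells counted as capillary, and the venous one 1 with the 9 genes left in the clustering. Leaving out 1 replicate at a time gave 0 to 2 genes in endothelial, 0 to 1 in venous and 0 to 2 in detected endothelial cells, and 0 to 1 for the arterial interaction.

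Of the 2 genes called by Cldn5 status in arterial cells, 0 remained with DESeq2, equal cell numbers, the 9 genes in the clustering, a lower resolution or at least 4000 UMIs, and 1 with RLE factors, stricter filters, doublets kept, the marker gate or 0 or 1 against at least 5 Cldn5 UMIs; leaving out 1 library gave 0 to 1. In capillary cells the 3, all higher, became 7 with the 9 genes in the clustering and 1 at 4000 UMIs, counting both directions. Leaving out 1 library gave 1 to 2. With Apln-led cells counted as capillary they became 6, of which 4 were higher and 2 lower. The 2 lower were Hes1 at -0.40 ± 0.08 (edgeR adjusted p = 0.00023) and Nrarp at -0.41 ± 0.12 (edgeR adjusted p = 0.029). Of 10721 genes tested there, 284 were higher and 335 lower, against 99 and 147 of 10038 in the main fit. Hes1 turned direction without iECKO 1 (-0.75 in venous cells and -0.31 in the venous interaction), by status in arterial cells with the 9 genes in the clustering (0.13) and by the marker gate (0.56 in arterial, 0.10 in capillary cells). Nrarp turned to 0.0808 by status in arterial cells with the marker gate. Other leave-outs gave 0.44 for Hes1 in venous cells (without control 1) and 0.20 in the venous interaction (without iECKO 3). The cause was not tested for any of these.

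With 3 libraries per group, simulated 2-fold changes (log2 of 1) were recovered for 84.2% of genes in endothelial and 87.6% in capillary genotype sums. By status in capillary cells 51.0% were recovered. These rates describe simulated counts and do not give the power of the tests on the libraries. Without a block Nrarp did not pass at 1.34 ± 0.28 in endothelial cells (edgeR adjusted p = 0.22). Nor did Nrarp pass at 1.13 ± 0.24 in capillary cells (edgeR adjusted p = 0.33). A gene that did not pass is thus not shown to be unchanged. The venous status comparison could not be fitted.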
